A study of Mus musculus with 6 samples.

Results

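The piRNA pathway and chromatoid body genes described here are Piwil1, Piwil2, Piwil4, Mov10l1, Ddx4, Tdrd1, Tdrd6, Tdrd9, Mael and Dnmt3l, 10 genes chosen by name and read through every probe set annotated to one of them alone. Of the 10, 9 had such a probe set, 10 probe sets in all among the 45037 that were tested. Piwil4 had 2 and each of the others 1, and Tdrd6 was not analysed here. Expression was measured in whole, freshly dissected testes of adult mice, in 3 DREAM transgenic and 3 wild-type samples with 1 Affymetrix array each. All mice were hybrids of C57BL/6 and CBA. The transgenic mice carry a DREAM mutant labelled constitutively active, and the promoter and cell type that drive it are not given in the sources used here. DREAM is the product of Kcnip3, a calcium sensor that binds DNA and represses transcription while calcium is low, and the comparison addresses which testis transcripts differ in its presence.

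piRNAs are small RNAs of the germ line that guide Piwi proteins to the transcripts of transposons and of other genes. Their precursors are handled by RNA helicases and cut in nuage, granules held together by Tudor proteins that bind methylated arginines of Piwi proteins. In round spermatids such material gathers in a single large granule, the chromatoid body. In the fetal male germ line the pathway also directs DNA methylation to transposons.

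No member differed between the genotypes past the threshold used, an adjusted p under 0.05. With limma, 0 of the 10 member probe sets passed, where 0.444% of all probe sets did, and 0 of the 10 reached an unadjusted p under 0.05, where 6.69% of all did. Their differences, transgenic minus wild type, ran from -0.19 (Tdrd9) to 0.19 (Dnmt3l) on the log2 scale. The outermost bounds of their 95% intervals were a 0.762-fold and a 1.36-fold level, so changes in intensity beyond those sizes lay outside every member's own interval. The median of the 10 differences was -0.015, against 0.02 over all probe sets. Of the 10, 7 were below 0, where 19123 of all 45037 probe sets were. The values are RMA intensities from whole testis, in which fewer cells of a type and less RNA per cell cannot be told apart.

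Over all genes, 200 of 45037 probe sets passed, 77 higher and 123 lower in transgenic testis. When single arrays were left out 70 to 429 passed, the 429 without wild type replicate 2, and 18 passed with the gap between the 3' and 5' Gapdh controls as a covariate. Wild type replicate 2 stood apart from the other arrays on the first principal component (42.2, where the others lay between -23.3 and 5.3). Kcnip3 overlapped between the groups with both its probe sets, at 7.15, 7.30 and 7.36 in transgenic and 7.33, 7.11 and 7.18 in wild-type testis with 1 of them. It is not known here whether these probe sets read the transgene. Prm1, a protamine of sperm chromatin and a marker of testis, read 14.07 to 14.12 in transgenic and 14.08 to 14.11 in wild-type samples.

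Since DREAM acts at DNA, the promoters of the members were read for its element and for other short motifs, in RefSeq windows of build GRCm38.p6 that run from 250 bases before to 50 bases after each transcription start. Of the 10 members, 8 matched, with 13 windows (3 each for Tdrd1 and Dnmt3l, 2 for Piwil4), and Piwil2 and Tdrd6 did not. The letters were sought on both strands and a match is not a binding site. Sequence outside these windows, as beyond 50 bases after the start, was not read. GTCA, the core of the element that DREAM binds, was in 10 of the 13 windows and in 7 of the 8 genes, against 85.2% of all 32851 windows. GTCAAGG, a longer form of it, was in 0 of the 13, against 3.18%. AACNG, the core that Myb proteins bind, was in 11 of the 13, against 80.3%. TCCCGC, an E2F core, was in 2 of the 13, against 19.98%. The E-box CACGTG, which dimers of MAX bind, was in 8 of the 13 windows and in 7 of the 8 genes, against 7.15% of windows and 8.09% of all 27025 genes. Piwil4 was the gene without it. CACGTG holds a CG, and among windows with at least 10 CG dinucleotides, a minimum chosen after the members' windows were seen, 10.9% held it, against 7 of the 8 such member windows. A pair of Tdrd1 windows overlap and share 1 E-box. The windows of Piwil1, Mael, Ddx4 and Tdrd9 are shown for the E-box that most members share, with the E-box in capitals, 5′ to 3′ on the strand of the gene. They lie at chr5:128735996-128736295 on the plus strand for Piwil1, chr1:166238695-166238994 on the minus strand for Mael, chr13:112652261-112652560 on the minus strand for Ddx4, chr12:111971309-111971608 on the plus strand for Tdrd9.
Piwil1: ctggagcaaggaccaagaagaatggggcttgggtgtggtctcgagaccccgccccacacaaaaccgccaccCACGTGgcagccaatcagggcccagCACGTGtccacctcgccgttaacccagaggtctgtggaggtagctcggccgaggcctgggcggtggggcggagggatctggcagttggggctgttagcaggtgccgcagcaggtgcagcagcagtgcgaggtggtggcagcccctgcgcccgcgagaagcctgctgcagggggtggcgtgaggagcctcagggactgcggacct
Mael: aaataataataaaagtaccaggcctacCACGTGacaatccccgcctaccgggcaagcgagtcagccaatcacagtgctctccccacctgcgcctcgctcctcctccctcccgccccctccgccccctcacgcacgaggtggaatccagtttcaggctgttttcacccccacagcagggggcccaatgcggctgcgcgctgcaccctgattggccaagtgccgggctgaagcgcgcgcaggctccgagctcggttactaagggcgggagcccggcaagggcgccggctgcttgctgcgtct
Ddx4: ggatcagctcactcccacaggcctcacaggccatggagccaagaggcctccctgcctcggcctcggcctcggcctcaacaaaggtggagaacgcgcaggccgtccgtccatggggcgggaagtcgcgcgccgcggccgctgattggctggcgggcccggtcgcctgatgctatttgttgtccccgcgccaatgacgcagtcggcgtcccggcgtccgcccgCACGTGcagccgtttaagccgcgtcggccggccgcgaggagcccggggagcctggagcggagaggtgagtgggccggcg
Tdrd9: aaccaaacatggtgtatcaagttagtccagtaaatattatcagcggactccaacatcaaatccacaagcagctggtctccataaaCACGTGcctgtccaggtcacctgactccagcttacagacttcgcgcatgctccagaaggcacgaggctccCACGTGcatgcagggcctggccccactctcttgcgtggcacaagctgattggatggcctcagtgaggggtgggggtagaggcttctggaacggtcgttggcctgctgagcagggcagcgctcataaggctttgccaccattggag
Piwil1 and Tdrd9 hold 2 E-boxes each, where 0.594% of all windows hold at least 2. The first bases of the Piwil1 copies stand 179 and 154 bases before the start and those of Tdrd9 165 and 95 bases before it. Mael has its copy 223 and Ddx4 29 bases before the start. GTCA was absent from the Piwil1 window and stood, on one strand or the other, 150 and 144 bases before the start of Tdrd9 and 59 bases before that of Ddx4. In Mael it stood 219 and 191 bases before the start, the first overlapping the E-box.

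Among the Piwi proteins, the groups stood apart for Piwil1 and for 1 of the Piwil4 probe sets, by small amounts that did not pass. Piwil1, on chromosome 5, encodes MIWI, the Piwi protein of spermatocytes and round spermatids that carries pachytene piRNAs. Its probe set 1460340_at read 9.76, 9.66 and 9.67 in transgenic testis, against 9.79, 9.84 and 9.77 in wild-type testis (log2 intensity). Every transgenic array lay below every wild-type array, by as little as 0.01 between the nearest ones, the deposited resolution. The means were 9.70 ± 0.055 in transgenic and 9.80 ± 0.036 in wild-type testis (SD, n = 3 each), a difference of -0.10 (95% interval -0.30 to 0.088, SE 0.085, limma adjusted p = 0.932).

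Piwil2, on chromosome 14, encodes MILI, which loads piRNAs before and during meiosis and cuts RNA to make more of them. Its probe set 1449170_at read 10.08, 10.08 and 9.89 in transgenic testis, against 9.99, 10.21 and 9.93 in wild-type testis. The groups overlapped, with the highest value in wild-type and the lowest in transgenic testis. The difference was -0.027 (SE 0.11, limma adjusted p = 0.99, 95% interval -0.27 to 0.22), smaller than the SDs of 0.11 in transgenic and 0.15 in wild-type testis.

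Piwil4, on chromosome 9, encodes MIWI2, the nuclear Piwi protein known from the fetal testis, where it directs DNA methylation of transposons. Its probe set 1439716_at read 4.42, 4.28 and 4.28 in transgenic testis, against 4.21, 4.13 and 4.27 in wild-type testis. All transgenic values were higher, the nearest pair by 0.01 (difference 0.12, SE 0.091, limma adjusted p = 0.916, 95% interval -0.082 to 0.33). Its probe set 1447564_x_at, a type that may pick up other transcripts too, read 3.31, 3.31 and 3.40 in transgenic testis, against 3.35, 3.44 and 3.25 in wild-type testis. Here the groups overlapped (difference -0.0067, SE 0.091, limma adjusted p = 0.995). Both Piwil4 probe sets were among the lowest 40% of all probe sets by mean intensity, and without a detection call these readings are not shown to lie above background.

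**Figure D1:**
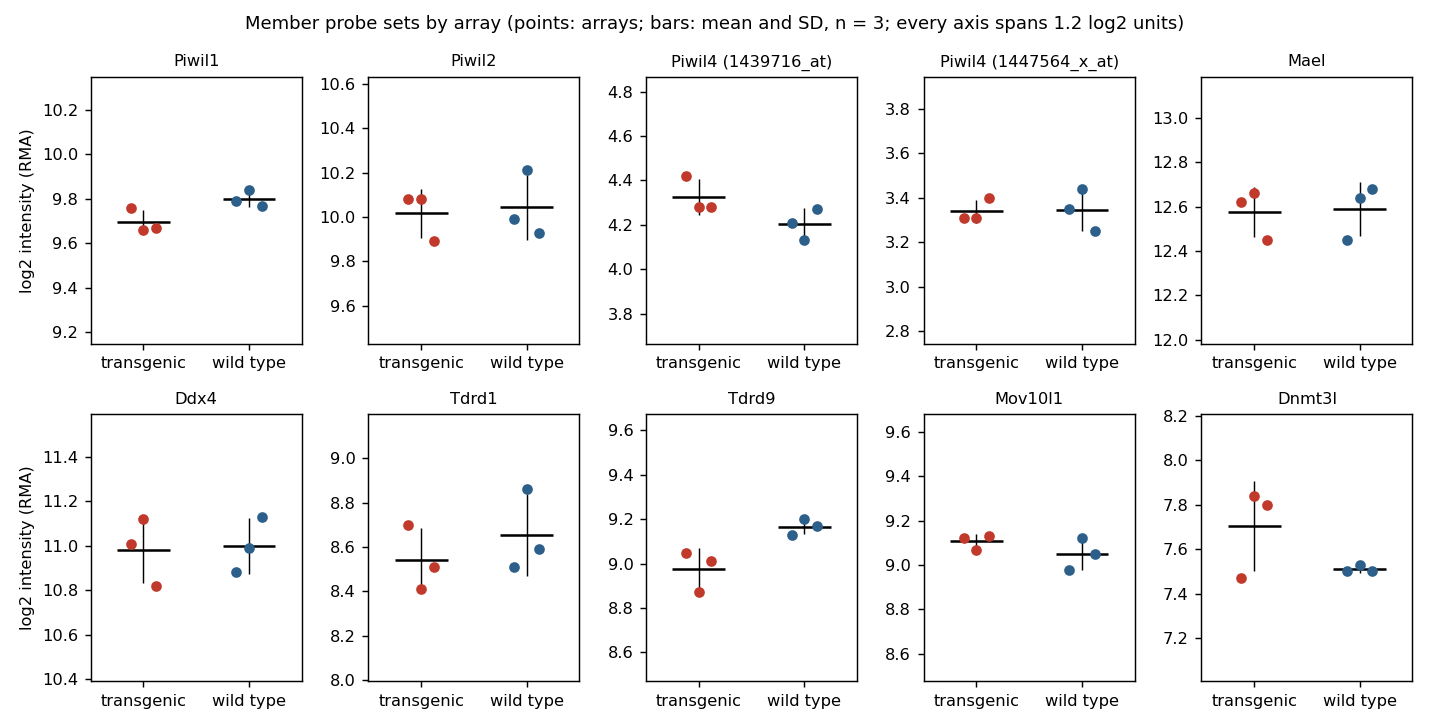
Log2 RMA intensity of the 10 member probe sets, transgenic arrays left and wild-type arrays right in each panel, with the mean and SD of 3 arrays; each vertical axis spans the same 1.2 log2 units but starts at its own level. Tdrd9 and Piwil1 have all transgenic points below the wild-type points, Piwil4 has them above with 1439716_at, and Dnmt3l has 2 of 3 transgenic points at 7.80 and 7.84 above a tight wild-type group.

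Of the 2 helicases without a Tudor domain, neither differed by as much as 0.1 on the log2 scale. Mov10l1, on chromosome 15, encodes the RNA helicase that binds piRNA precursors and starts their processing. It read 9.12, 9.07 and 9.13 in transgenic testis, against 8.98, 9.12 and 9.05 in wild-type testis with 1419340_at. The groups overlapped, with a difference of 0.057 (95% interval -0.14 to 0.25, SE 0.086, limma adjusted p = 0.973). Ddx4, the mouse form of Vasa on chromosome 13, is a DEAD-box helicase of nuage and the chromatoid body and a common marker of germ cells. It read 11.01, 11.12 and 10.82 in transgenic testis, against 10.88, 10.99 and 11.13 in wild-type testis with 1427242_at. The groups overlapped, and the lowest value was a transgenic one (difference -0.017, SE 0.11, limma adjusted p = 0.993, 95% interval -0.27 to 0.23).

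The Tudor genes included the member with the smallest p. Tdrd9, on chromosome 12, encodes a Tudor protein that is also a helicase and that works with MIWI2 in the fetal germ line. Its probe set 1453357_at read 9.05, 8.87 and 9.01 in transgenic testis, against 9.13, 9.20 and 9.17 in wild-type testis. All transgenic arrays were lower, by at least 0.08, and the means were 8.98 ± 0.095 in transgenic and 9.17 ± 0.035 in wild-type testis (SD, n = 3 each). The difference was -0.19, a 0.877-fold intensity (SE 0.090, unadjusted p = 0.0631, limma adjusted p = 0.78, 95% interval -0.39 to 0.013). Without wild type replicate 2 its adjusted p was 0.537, and over all alternatives it lay between 0.0793 and 0.998.

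Tdrd1, on chromosome 19, encodes a Tudor protein that binds MILI in the cement between mitochondria. It read 8.70, 8.41 and 8.51 in transgenic testis, against 8.51, 8.86 and 8.59 in wild-type testis with 1421513_at. The groups overlapped, and the highest wild-type value was that of replicate 2. The difference of -0.11 (95% interval -0.39 to 0.16, SE 0.12, limma adjusted p = 0.959) was within the SDs of 0.15 in transgenic and 0.18 in wild-type testis, and was -0.010 without that replicate.

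Mael, on chromosome 1, encodes Maelstrom, a nuage protein needed for transposon silencing and for the output of pachytene piRNAs. It read 12.62, 12.66 and 12.45 in transgenic testis, against 12.45, 12.64 and 12.68 in wild-type testis with 1436837_at. Each group held 1 array at 12.45 and the rest between 12.62 and 12.68, and the difference was -0.013 (SE 0.10, limma adjusted p = 0.994, 95% interval -0.25 to 0.22).

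Dnmt3l, on chromosome 10, encodes a cofactor without catalytic activity of its own that helps the de novo DNA methyltransferases to methylate transposons in fetal male germ cells. It read 7.47, 7.84 and 7.80 in transgenic testis, against 7.50, 7.53 and 7.50 in wild-type testis with 1425035_s_at, a type that may read more than 1 transcript. Transgenic replicate 1 lay below all wild-type arrays and the other 2 transgenic arrays above them. The means were 7.70 ± 0.20 in transgenic and 7.51 ± 0.017 in wild-type testis (SD, n = 3 each), a difference of 0.19 (95% interval -0.060 to 0.45, SE 0.11, limma adjusted p = 0.851). Without transgenic replicate 1 it was 0.31, and its adjusted p was then 0.565.

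**Figure D2:**
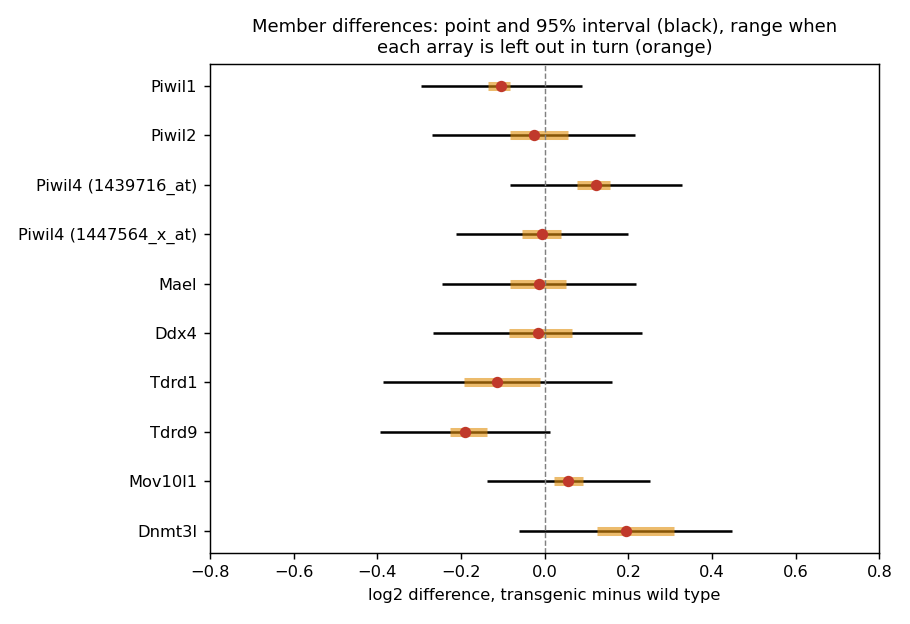
Log2 difference, transgenic minus wild type, for the 10 member probe sets (red points) with the 95% limma interval (black lines) and the range of the difference when each of the 6 arrays was left out in turn (orange bars). All intervals include 0; Tdrd9 reaches from -0.39 to 0.013, and Dnmt3l moves between 0.12 and 0.31 with the array left out.

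Counted together, the groups did not overlap for 3 of the 10 member probe sets, 2 lower (Piwil1 and Tdrd9) and 1 higher (Piwil4), where 11.3% of all probe sets did not overlap (6.35% with every transgenic array higher and 4.95% with every one lower). Without wild type replicate 2, as with all 6 arrays, 0 of the 10 passed, where 429 and 200 of all 45037 probe sets did. Over the 36 pairs of the 9 genes, Pearson's r over the 6 arrays, which share 1 normalization, had a median of 0.057 and ran from -0.87 (Piwil1 and Dnmt3l) to 0.94 (Mael and Ddx4), a description with no test. The 5 genes of highest r with the mean of the 9 members, each centred on its own mean, were Atpaf1, Vps4b, Ilkap, Usp48 and Tbk1 (0.997 to 0.994 over the 6 arrays). They were sought only among single-gene probe sets with a mean intensity above the median of all probe sets. With so few arrays, 863 of the 19895 probe sets compared had an r over 0.9.

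The Gapdh control of RNA integrity and some sums of cell markers stood apart between the groups beside these values. The log2 gap between the 3' and 5' Gapdh control probe sets was 0.27 ± 0.060 in transgenic and 0.11 ± 0.05 in wild-type testis (SD, n = 3 each, exact permutation p = 0.1, two-sided, the smallest that 3 against 3 arrays allow). The same gap for the actin control overlapped between the groups, at 0.53, 0.47 and 0.49 in transgenic and 0.50, 0.41 and 0.50 in wild-type testis. With the Gapdh gap as a covariate 0 of the 10 member probe sets passed, and their median difference was 0.15 in place of -0.015. That gap was higher in every transgenic array, so its part and that of genotype are hard to tell apart. The spermatocyte markers, of which all 9 were measured, had a summed linear intensity of 4275 to 4426 in transgenic and 4813 to 5153 in wild-type testis. Their groups did not overlap, and 0 of the 9 passed the test. Of the 9, 8 read below 0 (median difference -0.13), where 19123 of all 45037 probe sets did. Meiob (-0.58), Sycp1 (-0.41) and Spo11 (-0.38) read lowest, while Msh4 (-0.063) and Ccna1 (-0.017) lay near 0 and H1f6 read 0.13. The 6 measured round spermatid markers summed to 9233 to 10005 in transgenic and 10145 to 10438 in wild-type testis, again apart, with a median of -0.065 and 0 passing. The 8 spermatogonial markers summed to 1223 to 1296 in transgenic and 1206 to 1426 in wild-type testis, and the groups overlapped. The 8 elongating spermatid markers, at 101323 to 105411 in transgenic and 102340 to 105225 in wild-type testis, overlapped as well. They were among the brightest of all probe sets, from Smcp (13.13) to Prm1 (14.10) in transgenic testis, and saturation was not tested. The 5 measured Leydig cell markers summed to 5595 to 6400.2 in transgenic and 4605 to 5421 in wild-type testis. Their median difference was 0.027: Hsd3b1 (1.48) and Hsd17b3 (0.91) read far above the other 3, which were Cyp17a1 (0.027), Star (0.0067) and Cyp11a1 (-0.063). The 5 macrophage markers summed to 753 to 857 in transgenic and 636 to 735 in wild-type testis (median difference 0.17). The 5 endothelial markers summed to 252 to 264 in transgenic and 223 to 237 in wild-type testis (median difference 0.24). These somatic sums were higher in every transgenic array. The Sertoli, peritubular myoid and epididymal sums overlapped, and how often sums of other genes stand apart was not tested. Hsd3b1, a Leydig cell enzyme of steroid synthesis, was the 1 marker that passed in any of these lists, and without wild type replicate 2 Hsd17b3 and the epididymal Rnase10 passed too. The part of integrity and of cell makeup in the members' values was not tested.

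Related genes were read from 5 lists of 44 genes, of which 42 had a probe set, 87 in all. With limma 0 of the 87 passed, where 0.444% of all probe sets did, and 6 had an unadjusted p under 0.05, where 6.69% did. Their median difference was 0.013, and their groups were apart for 7 of 87, where 11.3% of all probe sets were. Without wild type replicate 2, 3 of the 87 passed, where 429 of all 45037 probe sets did. The 3 were both of Mybl1 and that of Morc1, with 0 in the other 4 lists.

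In the list of piRNA biogenesis and nuage, 0 of 17 probe sets (14 of 15 genes) passed, 3 had an unadjusted p under 0.05 and the median was 0.017. Those 3 belong to Mybl1 and Morc1, and every transgenic array was higher with each. Mybl1, on chromosome 1, encodes A-MYB, the transcription factor of spermatocytes that drives pachytene piRNA precursors and genes of the pathway. Its probe set 1456951_at read 8.78, 8.5 and 8.45 in transgenic testis, against 7.78, 8.13 and 7.69 in wild-type testis. Its probe set 1450481_at read 7.22, 6.85 and 7.01 in transgenic testis, against 6.11, 6.55 and 6.16 in wild-type testis. The 2 probe sets differed by 0.71 (SE 0.14, limma adjusted p = 0.0852) and 0.75 (SE 0.14, limma adjusted p = 0.0749), neither past the threshold. Without wild type replicate 2, the highest of the wild-type arrays with both, they rose by 0.84 and 0.89 (limma adjusted p = 0.00852 and 0.00662). Without any other single array neither passed.

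Morc1, on chromosome 16, encodes an ATPase needed for transposon silencing in the male germ line. It read 6.76, 6.73 and 7.02 in transgenic testis, against 5.93, 6.38 and 6.08 in wild-type testis. The gap between the nearest arrays was 0.35, with a difference of 0.71 (SE 0.13, limma adjusted p = 0.0772) that did not pass. Without wild type replicate 2, the highest of the wild-type arrays here as well, it rose by 0.83 (limma adjusted p = 0.00834). Morc1 did not pass when any other single array was left out (limma adjusted p between 0.177 and 0.356). Mybl1 acts in spermatocytes, whose marker sum was lower in transgenic testis as given above, with 0 of those markers past the threshold. The part of cell makeup in the Mybl1 values was not tested. Over the other 40 related genes the differences ran from -0.31 to 0.22.

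**Figure D3:**
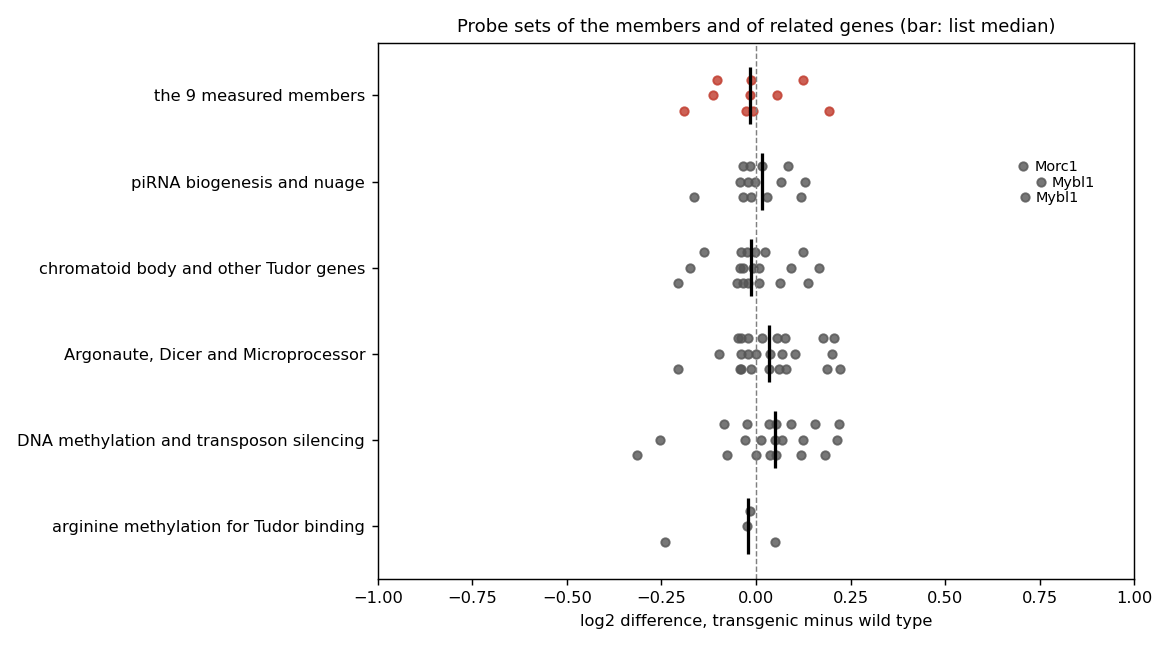
Log2 difference, transgenic minus wild type, of the 10 member probe sets (red) and of the 87 probe sets of 5 lists of related genes (grey), with black bars at the list medians; vertical scatter within a row carries no value. Both probe sets of Mybl1 and that of Morc1 lie at 0.71 to 0.75, and all other points lie between -0.31 and 0.22.

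Chromatoid body and other Tudor genes had 0 of 20 probe sets (9 genes) past the threshold, 0 at an unadjusted p under 0.05 with limma and a median of -0.013. Tdrd3, a Tudor protein that reads methylated arginine, had both of the smallest p. It read 8.66, 8.75 and 8.63 in transgenic testis, against 8.54, 8.60 and 8.40 in wild-type testis with 1451545_at (difference 0.17, limma adjusted p = 0.842). With 1434869_at it read 4.6, 4.70 and 4.71 in transgenic testis, against 4.70, 5.11 and 4.82 in wild type (difference -0.21, limma adjusted p = 0.842), so these probe sets went opposite ways. Its other probe set, 1441496_at, read 0.14.

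Of the 25 probe sets for Argonaute, Dicer and Microprocessor genes, which serve microRNAs, 0 passed, 1 had an unadjusted p under 0.05 and the median was 0.033. That 1 was Ago4, an Argonaute, with 7.19, 7.04 and 7.28 in transgenic testis, against 6.93, 6.99 and 6.92 in wild-type testis with 1453289_at (difference 0.22, limma adjusted p = 0.72). Its other probe set read -0.097. Ago3 was next with 1441063_at (difference -0.21, limma adjusted p = 0.839), and its other 4 probe sets read -0.047 to 0.18.

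Among genes of DNA methylation and transposon silencing, 0 of 21 probe sets (8 of 9 genes) passed, 2 had an unadjusted p under 0.05 and the median was 0.05. Dnmt3a, a de novo DNA methyltransferase, read 5.81, 5.90 and 5.75 in transgenic testis, against 6.13, 6.09 and 6.00 in wild-type testis with 1460324_at (difference -0.25, limma adjusted p = 0.569). All transgenic arrays were lower there, while its other 4 probe sets read 0.037 to 0.12. Tex15, which takes part in meiotic recombination and in transposon silencing with MIWI2, read 8.99, 9.26 and 9.05 in transgenic testis, against 9.67, 9.19 and 9.38 in wild-type testis. Its groups overlapped (difference -0.31, limma adjusted p = 0.726), and the difference was -0.185 without wild type replicate 1.

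Prmt5 is an enzyme that methylates the arginines which Tudor proteins bind. It read 8.79, 8.60 and 8.64 in transgenic testis, against 8.79, 9.10 and 8.86 in wild-type testis. The highest transgenic array equalled the lowest wild-type one (difference -0.24, limma adjusted p = 0.759), and the difference was -0.15 without wild type replicate 2. Its partner Wdr77 read 0.050 with 1422844_a_at (limma adjusted p = 0.984), and its other 2 probe sets read -0.017 and -0.023. Of the 4 probe sets of this pair 0 passed, and 0 had an unadjusted p under 0.05 with limma.

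**Figure D4:**
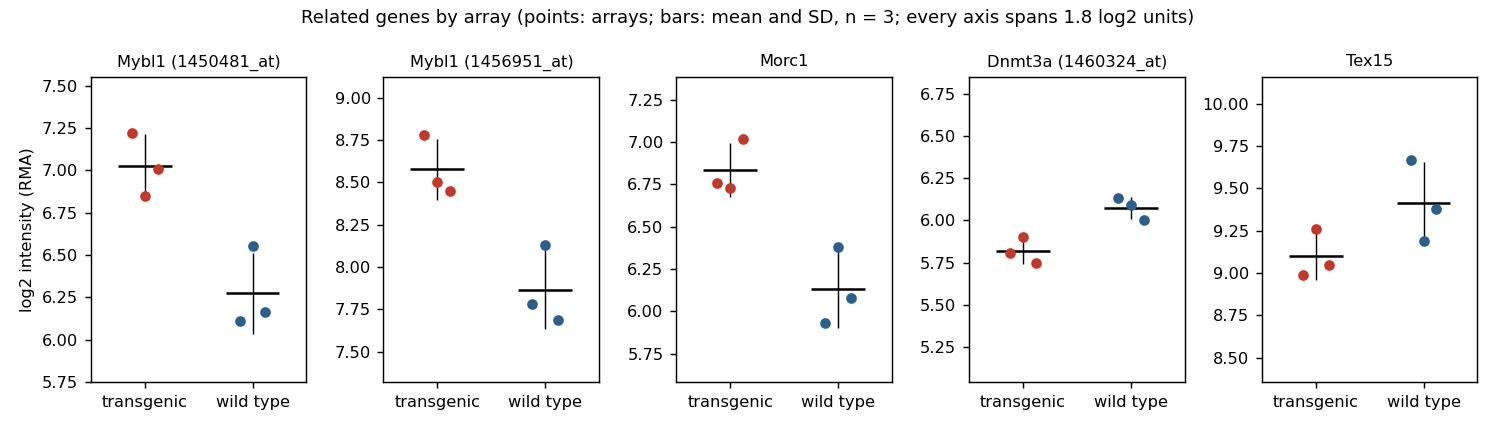
Log2 RMA intensity by array for both probe sets of Mybl1, for Morc1, for Dnmt3a with 1460324_at and for Tex15, transgenic arrays left and wild-type arrays right, with the mean and SD of 3 arrays; each axis spans 1.8 log2 units. The transgenic arrays lie above all wild-type arrays in the Mybl1 and Morc1 panels and below them for Dnmt3a, and the groups overlap for Tex15; none of the 5 passed the threshold.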

How the data were processed

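Per the labels' protocols, total RNA of adult testis was isolated with TRIzol and a column kit, labelled with biotin and hybridised to Affymetrix whole-genome mouse arrays, 1 per sample. The deposited table gives log2 intensities to 2 decimals, 1 per probe set. Per the submitters' processing notes the authors used RMA and the affy package, with versions not stated. Because RMA equalises the distributions of the arrays, a change common to most transcripts would not show, and no detection call comes with the values. Of 45101 probe sets, 64 Affymetrix controls were left out and 45037 tested without a filter.

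Genes were named from the platform annotation, updated through RefSeq gene IDs (GRCm38.p6), which matched 34741 of 34945 single-gene probe sets. A further 932 carry several genes and 9160 none here, which were tested and not named. Groups follow the sample titles. The comparison was limma 3.58.1 in R 4.3.3 (lmFit, eBayes, two-sided) of the difference transgenic minus wild type, adjusted by Benjamini-Hochberg over all 45037, and the 95% intervals are per probe set and not adjusted. The fit was tested on simulated data. The submitters call the arrays independent biological replicates, and 3 per group limit the precision. No array copied another: at most 2.61% of values were equal between a pair.

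The members and gene lists were chosen with earlier results of these data known. In each list of related genes the rule named the members past the threshold or else the 2 probe sets of smallest p, and other probe sets of those genes were added after their values were seen. Marker sums use each gene's probe set of highest mean. What a gene is known to do is given as background. The alternatives were 2 filters on low values, array weights, median centring, a second quantile normalization, eBayes with trend and robust, a block for the replicate number, the Gapdh difference as a covariate, leaving out each array, leaving out _x_at, _s_at and _a_at probe sets and averaging a gene's probe sets. Deviations of same-numbered arrays from their group means cannot show whether the numbers pair the samples, since they cancel within each group.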

Additional observations from a re-analysis of the deposited data

How the results depend on the processing

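Under all 16 alternatives 0 member probe sets passed, and their smallest adjusted p was 0.0793 (Tdrd9 with array weights). Of 153 member values under alternatives 136 kept their sign and 17 turned, with all values between -0.23 and 0.31. Part of the 136 was fixed in advance, because some alternatives cannot change a difference. These are both filters on low values, eBayes with trend and robust, the replicate block and leaving out types of probe set. Averaging cannot change it either for a gene with 1 probe set. With the Gapdh covariate the sign turned for Piwil2 (0.27), Mael (0.25), Ddx4 (0.22), Tdrd1 (0.24), Dnmt3l (-0.023) and Prmt5 (0.063), and the members' median was 0.15. With that covariate Wdr77 read 0.51, Mybl1 1.17 and 1.18, Ago3 -0.49 and Tex15 -0.65, none past the threshold. The Gapdh gap was higher in every transgenic array, so the covariate runs with genotype. The SEs were wider with it, as for Mael at 0.18 in place of 0.10. With array weights the sign turned for Piwil2 (0.083) and Piwil4 1447564_x_at (0.085). Leaving out single arrays turned the sign for Piwil2 (-0.083 to 0.057), Piwil4 1447564_x_at (-0.055 to 0.04), Mael (-0.083 to 0.05), Ddx4 (-0.085 to 0.065) and Wdr77 (-0.047 to 0.14). Related probe sets past the threshold numbered 1 after quantile normalization again (Mybl1), 2 with trend and robust eBayes (both of Mybl1), 2 with averaged probe sets (Mybl1 and Morc1), 9 with array weights and 0 to 3 when single arrays were left out, the 3 without wild type replicate 2. Over all genes 306 probe sets passed with trend and robust eBayes, 4160 with array weights, 18 with the Gapdh covariate and 70 to 429 without single arrays, the 429 without wild type replicate 2 (wild type replicate 3 gave 70 when left out, transgenic replicate 1 gave 71, replicate 2 75 and replicate 3 73). The array weights did not converge and gave wild type replicate 3 a weight of 19.12, against 0.237 to 0.812 for the others. With the replicate number as a block 117 passed in place of 200, among them 0 members and 0 related probe sets. Same-numbered arrays correlated at -0.32, -0.065 and -0.012 in their deviations from the group means. Deviations cancel within each group of 3 arrays, so these values cannot show whether the numbers pair the samples. The Piwil4 probe sets were lost under both filters on low values. The cause of these shifts was not tested.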
